A study of Mus musculus with 5 samples.

Results

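The vasopressin and cAMP effector genes measured here were Avpr2, Avpr1a, Adcy6, Prkaca, Prkar2b, Rapgef3, Rapgef4, Pde4d and Creb1. They were chosen by name, with earlier results of these arrays known, so their ratios are given as a description, with no p-value, and nothing is read from how many of them a test called. A probe was taken where the array table or its RefSeq accession gave one of these 9 names, and this found 15 probes among 41174 that were not controls. Rapgef4 had 2 probes, Creb1 had 3, Pde4d had 4 and each of the other 6 genes had 1. GFP+ cells of the mouse kidney papilla, the inner tip of the medulla, were set against GFP- cells sorted from papillae. Both populations came from H2B-GFP mice, in which a histone fused to GFP marks chromatin, pulsed with doxycycline before birth and chased until 2 to 3 months of age. A GFP+ cell at that age has kept the label and is called label-retaining. Cells that never took up the label and cells that diluted it by division both count as GFP-. The titles call the tissue control, and the promoter driving the fusion and any pooling of animals are not stated in the labels. There were 5 biological replicates, each 1 Agilent array with 2 colours, with Cy5 for the GFP+ sample, Cy3 for the GFP- sample on every array by the labels, which name no dye swap.

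Vasopressin is the hormone that lets the collecting duct concentrate urine. Its V2 receptor, encoded by Avpr2, acts through the G protein Gs on adenylyl cyclase, and the cAMP formed activates protein kinase A, which moves the water channel Aqp2 to the apical membrane and phosphorylates the transcription factor CREB. cAMP also acts on the EPAC proteins, guanine nucleotide exchange factors for Rap, and phosphodiesterases end the signal.

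The values come with limits on direction and on replicate 1. No label or header names the dye of the first deposited intensity, so GFP+ over GFP- is the likely direction, taken from the Cy5 label and the usual Agilent order of Cy5 over Cy3. The submitters' names of the arrays put the negative before the positive sample for replicates 3 to 5 and give no such order for replicates 1 and 2. In these names both samples bear the same number for replicates 3 to 5 and different numbers for replicates 1 and 2. The names do not say what the numbers stand for. Were the direction reversed, each sign would change. Replicate 1 stood apart from the others. Across the tested probes its log2 ratios had Pearson correlations of -0.193 to -0.0659 with the other arrays, against 0.0624 to 0.233 among replicates 2 to 5. Probes share an array and are not independent replicates, so these are descriptions. Means and list medians below are therefore given with and without replicate 1, or the ratio on each array is given. A channel was called above background at an intensity of 3 or more times the array's single negative control probe, which set thresholds of 68.6 to 148 in GFP+ and 53.2 to 147 in GFP-. A probe entered the fit across all probes where at least 1 channel was above background on at least 3 of 5 arrays, which 29806 probes did. From 59.4% to 72.5% of probes were above background in GFP+ and 57.7% to 75.3% in GFP-. Papilla markers were present: all 10 principal cell markers and all 7 thin limb markers reached the threshold on 3 or more arrays, in GFP+ and in GFP- cells. All 6 thick ascending limb markers did so too, so this check does not set papilla apart from other parts of the kidney. Of the 15 probes, 14 were tested, and the fourth probe of Pde4d fell below the filter.

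No probe was called different between the populations. Of 29806 tested probes, limma called 0 at an adjusted p of 0.05 in each direction (percent called 0, lowest adjusted p 0.698), and 1793 (6.02%) had an unadjusted p below 0.05. With replicate 1 left out the number called was also 0 (lowest adjusted p 0.235), and 4658 (15.6%) had an unadjusted p below 0.05. The count of called probes among the 14 tested ones of the 9 genes was likewise 0. On replicate 1, 4 of these 14 ratios lay above 0, against 11, 10, 10 and 10 on replicates 2 to 5. Over all tested probes the shares above 0 were 44.0% on replicate 1 and 57.9%, 48.3%, 58.9% and 58.9% on replicates 2 to 5. The median log2 ratio of the 14 probes was -1.17 on replicate 1 and 1.38, 0.60, 1.61 and 1.28 on replicates 2 to 5. For all tested probes the medians were -0.25, 0.34, -0.03, 0.41 and 0.41 in the same order, so centring each array on its median lowers every ratio of replicates 2, 4 and 5, and raises every ratio of replicates 1 and 3, by the size of these medians.

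**Figure D1:**
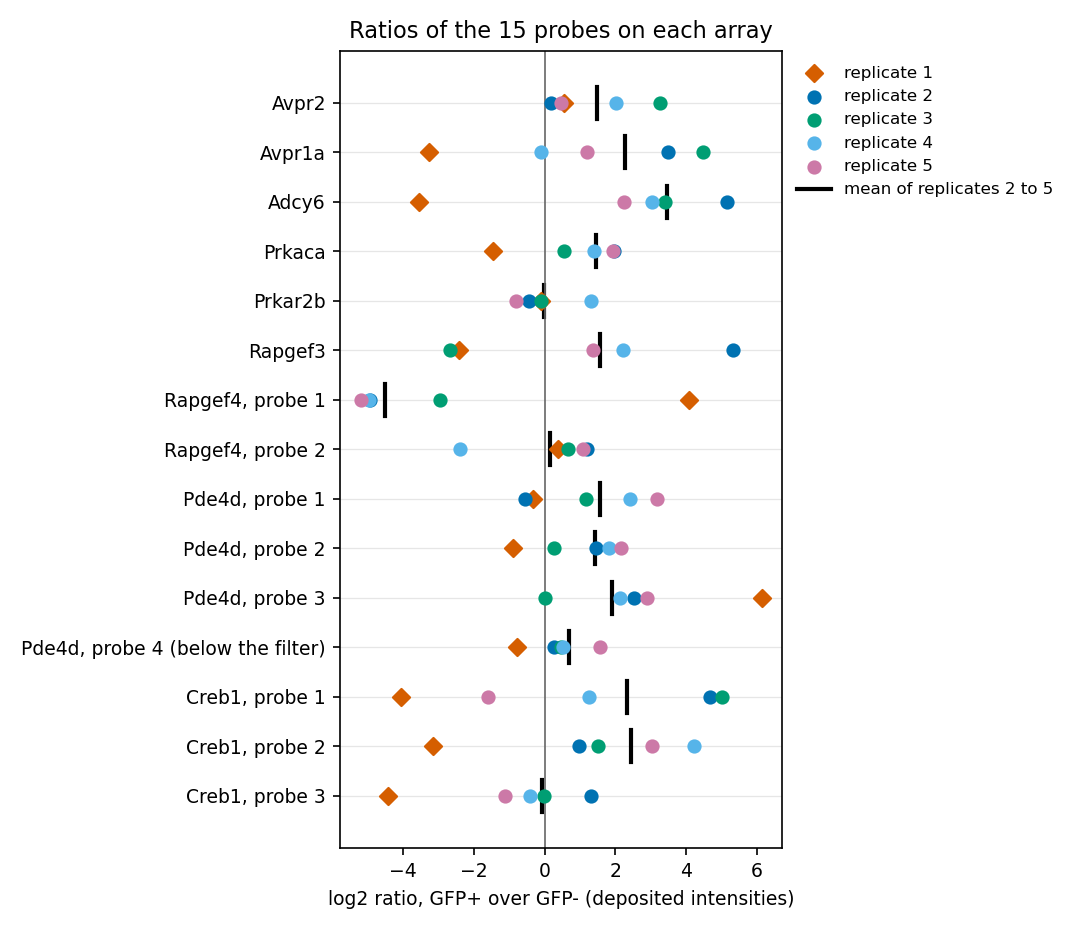
Log2 ratio of GFP+ over GFP- for each of the 15 probes (rows), with 1 point per array (diamond for replicate 1, circles for replicates 2 to 5) and a black bar at the mean of replicates 2 to 5. Rapgef4 probe 1 lies at 4.07 on replicate 1 and between -5.20 and -2.97 on the others, and Adcy6 lies at -3.55 on replicate 1 and between 2.25 and 5.15 on the others.

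Rapgef4 had the most negative ratios of the 9 genes on replicates 2 to 5, by 1 of its 2 probes. It encodes EPAC2, a cAMP-activated exchange factor for Rap best known from neurons and pancreatic beta cells. Its brighter probe, A_51_P285916, had intensities of 2731, 100.2, 360.2, 131 and 118 in GFP+ cells on replicates 1 to 5, against 162, 3079, 2814, 4054 and 4359 in GFP- cells. The GFP- cells were thus brighter on replicates 2 to 5 and the GFP+ cells on replicate 1, and both channels were above background on all 5 arrays. On replicates 2 to 5, however, GFP+ was only 3.9, 7.3, 5.7 and 4.3 times the negative control probe, against the cutoff of 3. The size of the ratios there thus rests on a dim GFP+ signal. The log2 ratios were 4.07, -4.94, -2.97, -4.95 and -5.20, with a mean of -2.80 ± 3.95 (SD, n = 5). Without replicate 1 the mean was -4.52 ± 1.04 (SD, n = 4), a 22.9-fold excess in GFP- cells. On those 4 arrays 4.6%, 5.3%, 2.9% and 1.1% of tested probes had a lower ratio, and on replicate 1 93.3% had a lower one. A pattern of ratios below 0 on replicates 2 to 5 and above 0 on replicate 1 was found for 7.65% of tested probes, and among the 14 probes for Rapgef4 probe 1 alone. Medians of endothelial markers lay on the same side of 0 on each array: over their 4 tested genes they were 0.88, -1.34, -0.54, -1.74 and -1.86, with 2 of 4 in this sign pattern. Of the others, Emcn had 0.64 on replicate 2 and Cdh5 had 1.48 on replicate 3. For Flt1, which had the pattern, and for Cdh5, the other of 2 tested probes had a mean of opposite sign. The summed intensity of the 4 endothelial genes was 1171 to 3239 in GFP+ cells and 1542 to 15115 in GFP- cells, with Kdr and Tek below the filter. Thick ascending limb markers had medians of 1.59, -0.88, -1.16, -0.88 and 0.03 over 6 genes, 1 of them in this pattern, and sums of 403554 to 1408460 in GFP+ cells and 432224 to 3412400 in GFP- cells. Pericyte and smooth muscle medians also had the signs of Rapgef4 probe 1, at 0.14, -0.12, -0.47, -0.09 and -0.23. Of their 6 tested genes 1 had this pattern. The part of any of these marker lists in the values of Rapgef4 was not tested.

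The other Rapgef4 probe, A_52_P292498, did not follow. Its intensities were 58.5, 109, 123, 23.5 and 93.1 in GFP+ cells, against 44.8, 47.1, 77.2, 123 and 43.9 in GFP- cells. It was above background on 2 arrays in GFP+ and on 1 in GFP-, so most of these values lie near the floor. Its log2 ratios were 0.38, 1.21, 0.67, -2.39 and 1.09, with a mean of 0.19 ± 1.48 (SD, n = 5), or 0.14 ± 1.70 without replicate 1 (SD, n = 4). On replicates 1 and 3 both channels lay below background. Only on replicate 4 was GFP- brighter. With an offset of 50 and loess the mean of the dim probe was -0.02 instead. The array tables give no position of either probe within the transcript.

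Rapgef3 encodes EPAC1, the more widely expressed EPAC protein, which kidney tubules also make. In GFP+ cells it had intensities of 2830, 140587, 11474, 12406 and 6154, against 15111, 3513, 72883, 2659 and 2378 in GFP- cells. Every value was far above background, yet the 2 populations changed places from array to array. Replicates 1 to 5 gave log2 ratios of -2.42, 5.32, -2.67, 2.22 and 1.37, with a mean of 0.77 ± 3.36 (SD, n = 5) and of 1.56 ± 3.29 without replicate 1 (SD, n = 4). Without replicate 2 the mean was -0.37, without replicate 3 it was 1.62 and without replicate 4 it was 0.40. On replicates 1, 2, 4 and 5 the brighter Rapgef4 probe and Rapgef3 had opposite signs, and on replicate 3 both lay below 0.

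The bases before the annotated starts of these genes are shown because CREB binds the cAMP response element, TGACGTCA, and its shorter form TGACG. The sequences are those of RefSeq on GRCm38.p6, cover the 250 bases before the start, and are written 5′ to 3′ on the gene's strand with TGACG, or CGTCA for the other strand, in capitals. Rapgef4 (chr2:71980965-71981214, plus strand) holds no match, Rapgef3 (chr15:97767667-97767916, minus strand) holds 1 that begins 191 bases before the start, and Prkaca (chr8:83972728-83972977, plus strand) holds 2 that begin 120 and 6 bases before it:
Rapgef4: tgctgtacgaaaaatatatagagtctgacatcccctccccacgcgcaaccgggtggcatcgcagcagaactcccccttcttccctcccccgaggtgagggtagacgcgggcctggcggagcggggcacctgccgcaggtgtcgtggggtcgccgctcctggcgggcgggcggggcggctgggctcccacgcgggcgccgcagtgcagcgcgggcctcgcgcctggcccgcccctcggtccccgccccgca
Rapgef3: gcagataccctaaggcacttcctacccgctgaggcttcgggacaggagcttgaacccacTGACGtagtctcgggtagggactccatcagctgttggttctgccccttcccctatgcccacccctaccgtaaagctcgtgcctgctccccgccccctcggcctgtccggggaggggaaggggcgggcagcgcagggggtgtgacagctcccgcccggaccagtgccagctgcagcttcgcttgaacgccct
Prkaca: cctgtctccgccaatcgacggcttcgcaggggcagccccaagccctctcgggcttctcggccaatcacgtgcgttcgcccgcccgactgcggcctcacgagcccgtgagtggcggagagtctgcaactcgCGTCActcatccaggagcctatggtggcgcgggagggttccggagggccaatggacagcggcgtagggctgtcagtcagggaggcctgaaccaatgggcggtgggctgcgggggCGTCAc
Of the 9 genes 8 were in the table, Adcy6 being the one that was not, with 10 annotated starts between them. TGACG was found on either strand for 3 of these 8 genes (Prkaca, Rapgef3 and Avpr1a), at 3 of 10 starts, against 17.8% of all 32851 promoters in the table. The full element TGACGTCA, in which TGACG is contained, was found for 0 of 8 genes, against 1.55% of all promoters. A match describes letters in this window and is not evidence of binding.

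Among the receptors, Avpr2 had ratios above 0 on all 5 arrays, taken without centring. This V2 receptor is the vasopressin receptor of the principal cell, and its loss in humans causes X-linked nephrogenic diabetes insipidus. GFP+ cells had 21392, 27246, 29951, 224 and 62.7, against 14572, 24124, 3106, 55.6 and 45.3 in GFP- cells. The signal was high on replicates 1 to 3 and close to background on replicates 4 and 5: it was above background on replicates 1 to 4 in GFP+ and on replicates 1 to 3 in GFP-. On the log2 scale the ratios were 0.55, 0.18, 3.27, 2.01 and 0.47, with a mean of 1.30 ± 1.31 (SD, n = 5), or 1.48 ± 1.44 without replicate 1 (SD, n = 4). Without replicate 3 the mean was 0.80. Only on replicates 3 and 4 was the difference over 2-fold, and on replicate 4 it was set against a GFP- value below background. Of all tested probes, 67.2%, 46.3%, 91.5%, 82.7% and 51.1% had a lower ratio on replicates 1 to 5. On replicate 2 the Avpr2 ratio lay below the median of 0.34 over all tested probes, so centring turns its sign there. On replicate 5 it lay close to the median of 0.41. Ratios above 0 on all 5 arrays were found for 4.96% of tested probes and for 2 of the 14, the Avpr2 probe and the third probe of Pde4d. Ratios below 0 on all 5 arrays were found for 2.92% of tested probes and for 0 of the 14.

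Avpr1a encodes the V1a receptor, which signals through Gq and calcium and is best known from vascular smooth muscle. Its intensities were 281, 12817, 10699, 21.7 and 112 in GFP+ cells, against 2731, 1139, 484, 23.4 and 49.0 in GFP- cells. GFP+ cells were brighter on replicates 2, 3 and 5 and GFP- cells on replicate 1, and on replicate 4 both channels lay below background. Its log2 ratios were -3.28, 3.49, 4.47, -0.11 and 1.19, with a mean of 1.15 ± 3.07 (SD, n = 5) and of 2.26 ± 2.09 without replicate 1 (SD, n = 4). It was 0.57 without replicate 2 and 0.32 without replicate 3. For the pericyte and smooth muscle markers the medians over 6 tested genes were 0.14, -0.12, -0.47, -0.09 and -0.23 on replicates 1 to 5, and the part of these cells in the values of Avpr1a was not tested.

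**Figure D2:**
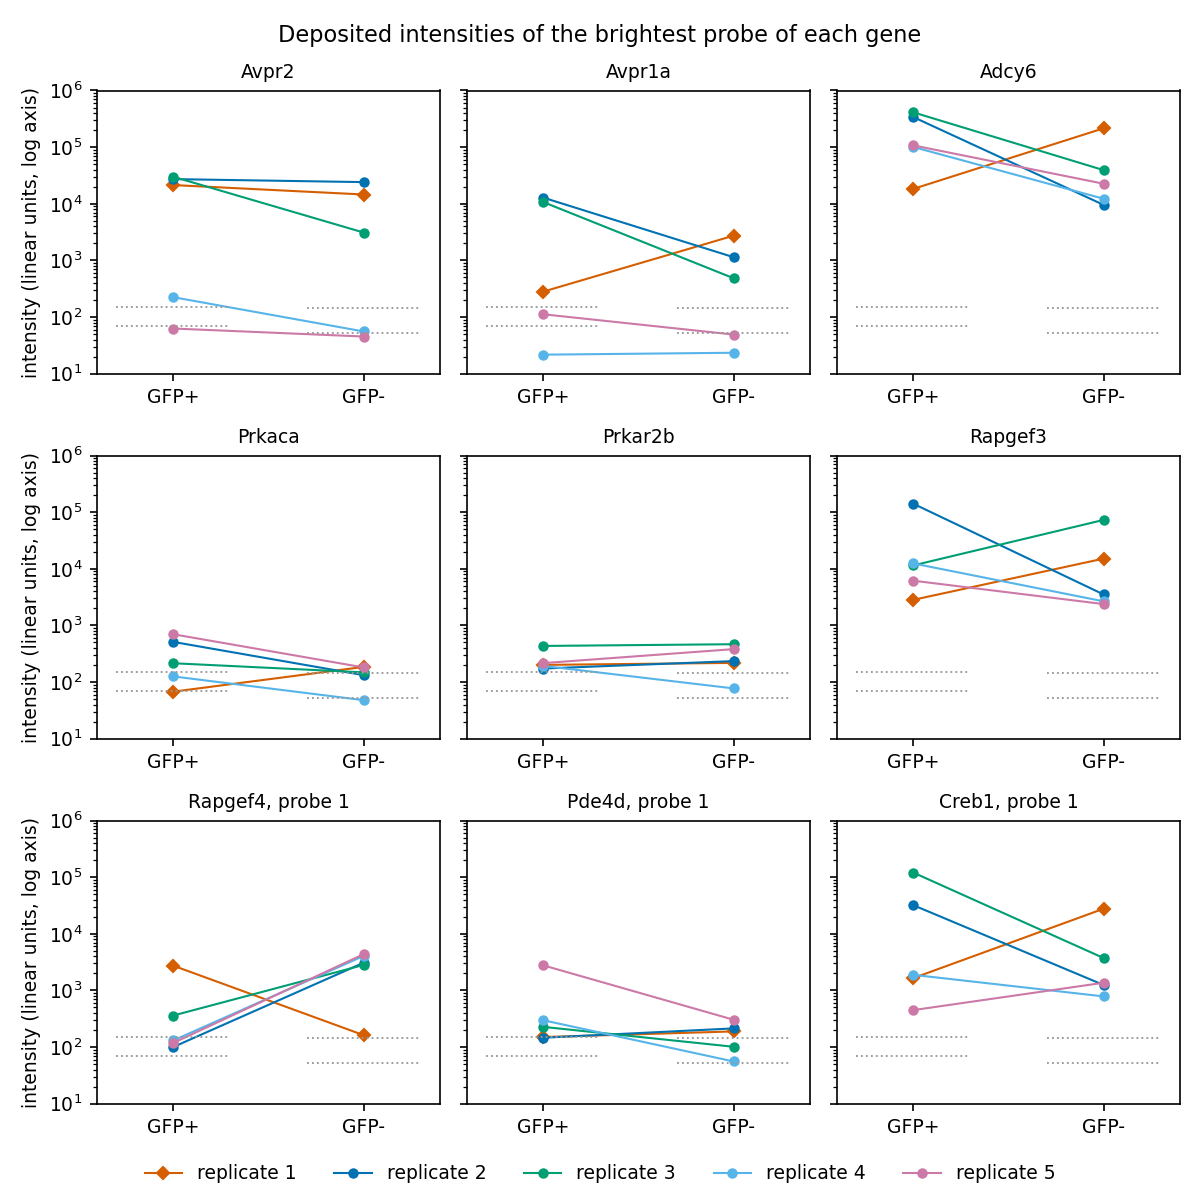
Deposited intensities (linear units on a log axis) of the brightest probe of each gene in GFP+ (left) and GFP- cells (right), with 1 line per array and diamonds for replicate 1. Dotted lines give the lowest and highest background threshold over the 5 arrays in each population. Adcy6 is higher at GFP+ on replicates 2 to 5 and lower on replicate 1, and Rapgef4 probe 1 shows the opposite.

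Adcy6 had the largest positive mean of the 14 tested probes on replicates 2 to 5. It encodes adenylyl cyclase 6, the main source of vasopressin-stimulated cAMP in the mouse collecting duct. GFP+ cells had 18331, 339053, 411179, 100571 and 107338, against 215232, 9544, 39243, 12258 and 22575 in GFP- cells. On replicates 2 to 5 the lowest GFP+ value lay above the highest GFP- value, while on replicate 1 GFP- cells were 11.7-fold brighter. The log2 ratios were -3.55, 5.15, 3.39, 3.04 and 2.25, with a mean of 2.05 ± 3.31 (SD, n = 5). Without replicate 1 the mean was 3.46 ± 1.23 (SD, n = 4), which is 11.0-fold, and without replicate 2 it was 1.28. Of all tested probes, 97.8%, 92.0%, 92.8% and 88.7% had a lower ratio on replicates 2 to 5, and 5.6% on replicate 1.

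This pattern, above 0 on replicates 2 to 5 and below 0 on replicate 1, was found for 11.7% of tested probes and for 4 of the 14: Adcy6, Prkaca, the second probe of Pde4d and the second of Creb1. For the last 3 of these, some of the ratios rest on values below background. Principal cell and thin limb markers had medians of the same signs. Of 10 principal cell markers 4 had this pattern, the list medians were -3.58, 4.69, 0.88, 0.23 and 0.78 on replicates 1 to 5, and its summed intensity ranged from 66279 to 990788 in GFP+ and from 23078 to 793245 in GFP- cells. None of the 10 was below background throughout in either population. Of 7 thin limb markers 4 had the pattern too, with medians of -2.01, 1.83, 2.93, 3.57 and 2.33 and summed intensities of 119766 to 1437200 in GFP+ and 23443 to 799207 in GFP- cells. The part of these markers in the values of Adcy6 was not tested. In sorted populations a larger share of cells of a type and more RNA per cell cannot be told apart.

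The protein kinase A subunits Prkaca and Prkar2b showed smaller differences than Adcy6. Prkaca encodes the catalytic subunit alpha. It had 67.6, 511, 215, 126 and 698 in GFP+ cells, against 185, 132, 148, 47.8 and 181 in GFP- cells. On the log2 scale the ratios were -1.45, 1.95, 0.54, 1.39 and 1.95, so GFP- cells were brighter on replicate 1 and GFP+ cells on each of the others. The mean was 0.87 ± 1.42 (SD, n = 5), and without replicate 1 it was 1.46 ± 0.67 (SD, n = 4). Each population was above background on 4 arrays. With an offset of 50 and loess the mean without replicate 1 was 0.93 ± 0.60 (SD, n = 4).

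Prkar2b encodes the regulatory subunit RII-beta, which holds the catalytic subunits inactive until cAMP binds. It had 201, 173, 434, 193 and 216 in GFP+ cells, against 218, 234, 465, 77.2 and 381 in GFP- cells. Its log2 ratios were -0.12, -0.43, -0.10, 1.32 and -0.82, and the mean was -0.03 ± 0.81 (SD, n = 5) or -0.01 ± 0.93 without replicate 1 (SD, n = 4). Of the 14 probes it had the mean nearest to 0, and on replicates 1 and 3 the populations differed by less than 10%. The single ratio above 0, on replicate 4, was set against a GFP- value below background.

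Pde4d encodes a cAMP-specific phosphodiesterase that is known to limit the cAMP response of collecting duct cells. Its probes are numbered here by brightness. Probe 1 had 150.1, 146, 227, 297 and 2766 in GFP+ cells, against 189, 213, 101, 55.6 and 303 in GFP- cells. Replicates 1 to 5 gave log2 ratios of -0.33, -0.55, 1.17, 2.42 and 3.19, with a mean of 1.18 ± 1.65 (SD, n = 5), or 1.56 ± 1.63 without replicate 1 (SD, n = 4). Replicate 5 was the one array with a GFP+ signal far above background, and without it the mean was 0.68. Probe 2 had 119.8, 225, 281, 188 and 367 in GFP+ cells, against 223, 82.5, 233, 53.3 and 81.5 in GFP- cells, with log2 ratios of -0.90, 1.45, 0.27, 1.82 and 2.17, a mean of 0.96 ± 1.26 (SD, n = 5) and one of 1.43 ± 0.83 without replicate 1 (SD, n = 4). Both of these probes were above background on all 5 arrays in GFP+, and on 3 and 2 in GFP-.

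Probe 3 of Pde4d went against probes 1 and 2 on replicate 1. It had 5731, 232, 39.0, 189 and 494 in GFP+ cells, against 80.9, 40.1, 38.6, 42.9 and 67.0 in GFP- cells. On replicate 1 GFP+ cells were thus 70.8-fold brighter, while probes 1 and 2 lay below 0 there. The log2 ratios were 6.15, 2.53, 0.02, 2.14 and 2.88, with a mean of 2.74 ± 2.21 (SD, n = 5), or 1.89 ± 1.29 without replicate 1 (SD, n = 4). With the sign of replicate 1 turned the mean was 0.28. GFP- cells were above background on replicate 1 alone, and on replicate 3 neither population was. Probe 4 was above background on 1 array in GFP+ and on none in GFP-, so no fold is given for it. Its intensities were 20.7, 44.4, 45.1, 20.9 and 103 in GFP+ cells, against 35.5, 37.2, 32.8, 14.7 and 35.2 in GFP- cells.

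Creb1 encodes CREB, the transcription factor that protein kinase A phosphorylates. Its brightest probe had 1649, 31918, 120127, 1883 and 449 in GFP+ cells, against 27684, 1245, 3724, 783 and 1365 in GFP- cells. GFP+ cells were brighter on replicates 2, 3 and 4 and GFP- cells on replicates 1 and 5. Its log2 ratios were -4.07, 4.68, 5.01, 1.27 and -1.60, with a mean of 1.06 ± 3.94 (SD, n = 5) and of 2.34 ± 3.13 without replicate 1 (SD, n = 4). It was 0.15 without replicate 2, 0.07 without replicate 3 and 1.72 without replicate 5. The second probe had 60.1, 77.1, 132, 2341 and 576 in GFP+ cells, against 537, 39.6, 46.1, 126 and 70.2 in GFP- cells, with log2 ratios of -3.16, 0.96, 1.51, 4.21 and 3.04, a mean of 1.31 ± 2.81 (SD, n = 5) and one of 2.43 ± 1.48 without replicate 1 (SD, n = 4). Without replicate 4 the mean was 0.59. This probe was above background on 3 arrays in GFP+ and on 2 in GFP-. The third probe, above background on 4 arrays in GFP+ and on 3 in GFP-, had -4.43, 1.31, -0.02, -0.42 and -1.13, a mean of -0.94 ± 2.15 (SD, n = 5) and one of -0.07 ± 1.03 without replicate 1 (SD, n = 4), and -1.50 without replicate 2. All 3 Creb1 probes lay far below 0 on replicate 1, where GFP- cells were 16.8-fold brighter by probe 1 and 21.6-fold by probe 3, while the GFP+ value of probe 2 lay below background. On replicate 3 both channels of probes 2 and 3 lay below background, and on replicates 4 and 5 the probes differed in sign.

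**Figure D3:**
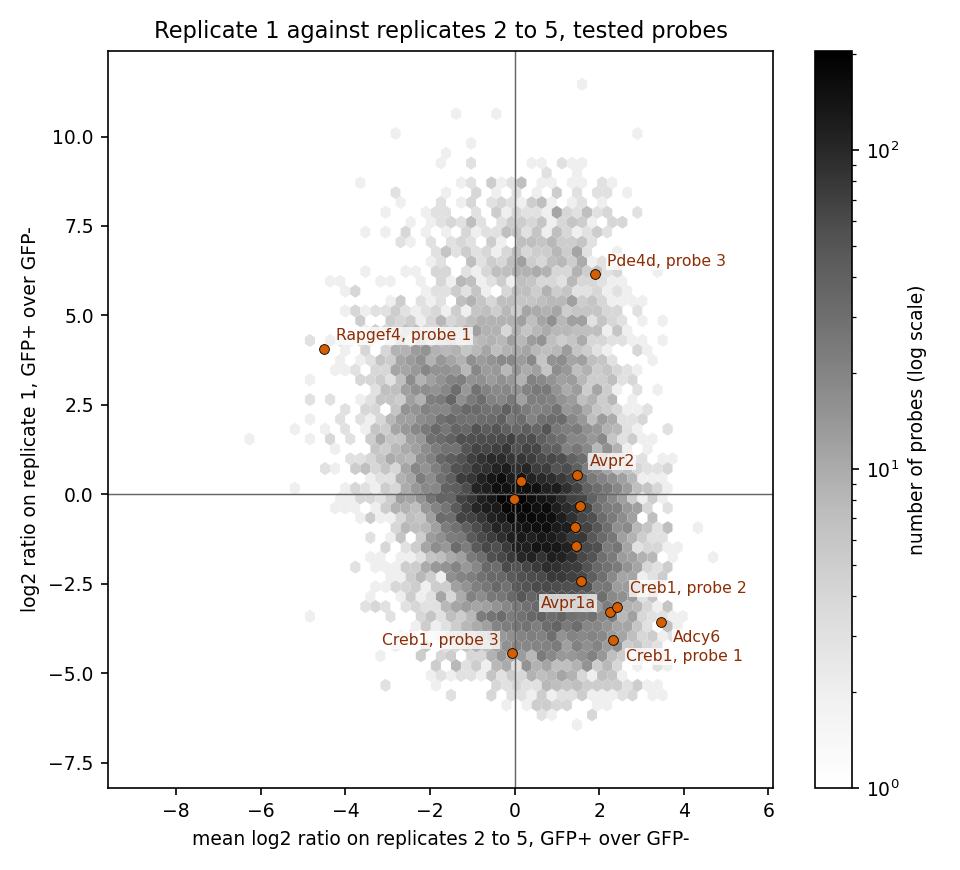
Log2 ratio on replicate 1 against the mean log2 ratio on replicates 2 to 5 for the tested probes (grey, number of probes per hexagon on a log scale) and for the 14 tested probes of the 9 genes (orange). Rapgef4 probe 1 sits in the upper left (-4.52 and 4.07), Adcy6, Avpr1a and the first 2 Creb1 probes in the lower right, and Avpr2 and Pde4d probe 3 above 0 on both axes.

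A mean over 5 arrays of at least 2-fold higher in GFP+ was reached by 7 of the 14 probes, and by 18.5% of all tested probes. For replicates 2 to 5 the count was 10 of 14, and the share of all tested probes was 26.4%. A mean at least 2-fold lower in GFP+ was reached by 1 of 14, against 12.4% of all, and without replicate 1 likewise by 1 of 14, against 17.1%. The 9 genes were chosen on this comparison, so nothing is read from these counts.

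The genes with ratios most like those of Rapgef4 probe 1 were Pla2g2f, a secreted phospholipase A2, Zfp609 and Kat14, a histone acetyltransferase, among 16398 other genes. Likeness was the root mean square difference in log2 ratio over the 5 arrays, each gene standing by its brightest tested probe. The differences were 0.65, 0.76 and 0.79. All 3 genes lay between 3.52 and 4.32 on replicate 1 and between -5.72 and -2.24 on the others. With loess Pla2g2f and Zfp609 kept the first 2 places and Kat14 came 19th. Those most like Avpr2 were Rps13, a protein of the small ribosomal subunit, Qrich1 and Atp6v0e2, a subunit of the vacuolar proton pump, with differences of 0.33, 0.41 and 0.42, and with loess they came 15th, 17th and 54th.

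The rest of the pathway was described with 9 lists of 90 genes, all on the array and 80 of them tested, each gene standing by its brightest tested probe. Of these 80, limma called 0 higher and 0 lower in GFP+ (percent called over all tested probes 0), while 3 had an unadjusted p below 0.05, with a lowest adjusted p of 0.812. Leaving replicate 1 out also gave 0 calls, while 8 had an unadjusted p below 0.05, with a lowest adjusted p of 0.235. The median of the 80 means was -0.15, and 0.0038 without replicate 1, against 0.13 and 0.24 over all tested probes. Means above 0 were found for 38 of 80, and for 40 without replicate 1.

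Receptors and hormone genes had means below 0 for 6 of 7, with a list median of -1.26. Without replicate 1 it was 5 of 7 and -1.80, and the median was -0.44 without replicate 2 and -0.58 without replicate 5. Ptger4, the EP4 prostaglandin receptor that also raises cAMP, had 0.98 ± 1.17 (SD, n = 5; 1.15 ± 1.28 without replicate 1), with GFP- above background on 2 arrays. For Ptger1, the EP1 receptor, the mean was -2.15 ± 4.08, with -9.00 on replicate 2 (SD, n = 5; -2.71 ± 4.48 without replicate 1). The hormone gene Avp, the V1b receptor gene Avpr1b and the oxytocin receptor gene Oxtr, named after their values were seen, were the 3 of 7 that lay below 0 on replicates 2 to 5 and above 0 on replicate 1, as 7.65% of tested probes did.

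For 6 of 11 G protein and desensitization genes the mean lay above 0, and the list median was 0.35. Without replicate 1 these were 5 of 11 and -0.52, and the median was 0.06 without replicate 4 and -0.06 without replicate 5. Gnas, which encodes the Gs protein that couples Avpr2 to adenylyl cyclase, had ratios of 1.11, -8.10, 4.57, -5.99 and 2.41, and its 7 tested probes split into 4 with a mean below 0 and 3 above. Gnaq, the Gq subunit used by Avpr1a, had 1.50 ± 2.17 (SD, n = 5; 0.91 ± 1.98 without replicate 1). The inhibitory subunit gene Gnai3 had 1.80 ± 1.69 (SD, n = 5; 1.66 ± 1.91 without replicate 1), and limma's adjusted p was 0.812.

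The other adenylyl cyclases did not share the ratios of Adcy6 as a group: 2 of 8 means lay above 0, with a median of -0.72, or 3 of 8 and -0.64 without replicate 1. Adcy1, a calcium-stimulated cyclase, was the 1 of 8 with the sign pattern of Adcy6, at -1.48 on replicate 1 and 3.50, 1.87, 2.90 and 1.90 on replicates 2 to 5, by its brightest probe. Its other 3 tested probes averaged 1.86, 0.02 and -0.29, and 0.81, -0.01 and 0.04 without replicate 1. Adcy2 lay below 0 on all 5 arrays, with a mean of -1.58 ± 1.39 (SD, n = 5; -1.92 ± 1.35 without replicate 1). So did Adcy4, named after its values were seen, with -0.81 ± 0.37 (SD, n = 5; -0.77 ± 0.42 without replicate 1). Among the other subunits and inhibitors of protein kinase A, 2 of 6 means lay above 0, with a median of -0.30. Without replicate 1 the count was again 2 of 6 and the median -0.22, and the median was -0.13 without replicate 2 and -0.49 without replicate 5. Prkacb, the catalytic subunit beta, had -1.29 ± 3.73 and Prkar1a, the regulatory subunit RI-alpha, 1.41 ± 3.64 (SD, n = 5; -2.01 ± 3.90 and 0.58 ± 3.63 without replicate 1), both on either side of 0 from array to array.

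Anchoring proteins, which tether protein kinase A to membranes and organelles, lay above 0 by their means in 6 of 9 cases, with a list median of 0.10 (7 of 9 and 0.16 without replicate 1). This median was -0.08 with arrays centred, -0.38 without replicate 2, -0.02 without replicate 3 and 0.22 without replicate 5. The mitochondrial anchor Akap1 had -1.54 ± 2.12 and the nuclear anchor Akap8 1.51 ± 1.87 (SD, n = 5; -1.40 ± 2.42 and 1.88 ± 1.93 without replicate 1). Another tested probe of Akap1 averaged 1.48, or 2.93 without replicate 1, the opposite sign. The Rap GTPases, on which the EPAC proteins act, and other regulators of Rap lay above 0 in 8 of 11 cases, with a list median of 0.44. Without replicate 1 these were 6 of 11 and 0.49, and without replicate 2 the median was 0.03. Rap1b, a direct substrate of EPAC, had 3.22 ± 2.84 (SD, n = 5), with 7.34 on replicate 1 and -0.24, 3.54, 3.91 and 1.54 on the others (2.19 ± 1.93 without replicate 1), and its other tested probe averaged 0.93. Rapgef2, an exchange factor for Rap, lay below 0 on all 5 arrays, with a mean of -1.53 ± 1.39 (SD, n = 5), at -4.00 on replicate 1 and -0.91 ± 0.20 on the others (SD, n = 4).

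Among the other phosphodiesterases 4 of 11 means lay above 0, with a median of -0.67 (again 4 of 11 and -0.38 without replicate 1, -0.31 without replicate 2 and 0.17 without replicate 3). Pde3b, which degrades cAMP and is inhibited by cGMP, had 2.46 on replicate 1 and -2.30, -1.64, -2.62 and -2.75 on replicates 2 to 5, the sign pattern of Rapgef4 probe 1, but its GFP+ values of 77.6, 112, 69.9 and 81.0 there lay near the threshold, those of replicates 3 and 5 below it. The other tested Pde3b probe had a mean of 1.21 (1.69 without replicate 1). Pde1b had -1.42 ± 2.65 and Pde4b, a relative of Pde4d, 0.22 ± 0.68 (SD, n = 5; -1.03 ± 2.89 and 0.07 ± 0.70 without replicate 1), and another Pde4b probe averaged 1.20 (1.84 without replicate 1). The CREB family and its coactivators lay above 0 in 1 of 7 cases, with a list median of -0.70 (2 of 7 and -0.87 without replicate 1, -0.29 without replicate 2 and -0.15 without replicate 3). Crem, a CREB relative, had -0.06 ± 0.69, and the coactivators Crebbp and Ep300 had -0.72 ± 0.93 and -1.61 ± 3.24 (SD, n = 5; 0.21 ± 0.39, -1.07 ± 0.61 and -1.37 ± 3.70 without replicate 1). Other probes disagreed in part. The second Ep300 probe averaged 3.27 (3.06 without replicate 1). Those of Crebbp averaged -2.69 and 0.27 (-3.60 and 0.42), the first with the sign of the brightest probe. Those of Crem averaged 1.14, -0.41 and 0.68 (1.60, -0.20 and 0.63), the second with the sign of the brightest probe over 5 arrays.

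Targets of vasopressin had 8 of 10 means above 0, with a median of 0.76. Without replicate 1 these were 9 of 10 and 1.40, and without replicate 2 the median was 0.27. The list median was -2.81 on replicate 1 and 2.70, 0.73, 0.52 and 0.18 on replicates 2 to 5, and 4 of its 10 genes had the sign pattern of Adcy6, against 11.7% of all tested probes. Several of these genes, Aqp2 and Aqp3 among them, are also on the list of principal cell markers, Slc14a2 is on that of the thin limb and Slc12a1 on that of the thick ascending limb, so these lists are not independent. Aqp2, the vasopressin-regulated water channel, had 4470, 211579, 315266, 200716 and 26480 in GFP+ cells, against 312409, 8140, 203487, 83083 and 8222 in GFP- cells. Its ratios of -6.13 on replicate 1 and 4.70, 0.63, 1.27 and 1.69 on the others followed the signs of Adcy6. Aqp3, the basolateral water channel, had -3.13, 4.69, 4.86, 3.09 and 0.89 in the same order. The urea transporter gene Slc14a2 had 0.32 ± 0.55 (SD, n = 5; 0.54 ± 0.29 without replicate 1) by its brightest probe, while its other tested probes averaged -2.10 and 0.09 (-1.50 and 0.74). Nr4a1, a nuclear receptor gene that CREB activates early, was the 1 gene of this list above 0 on all 5 arrays, with 1.48 ± 0.94 (SD, n = 5; adjusted p 0.812 in limma; 1.48 ± 1.09 without replicate 1), and GFP- was above background on 3 arrays.

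**Figure D4:**
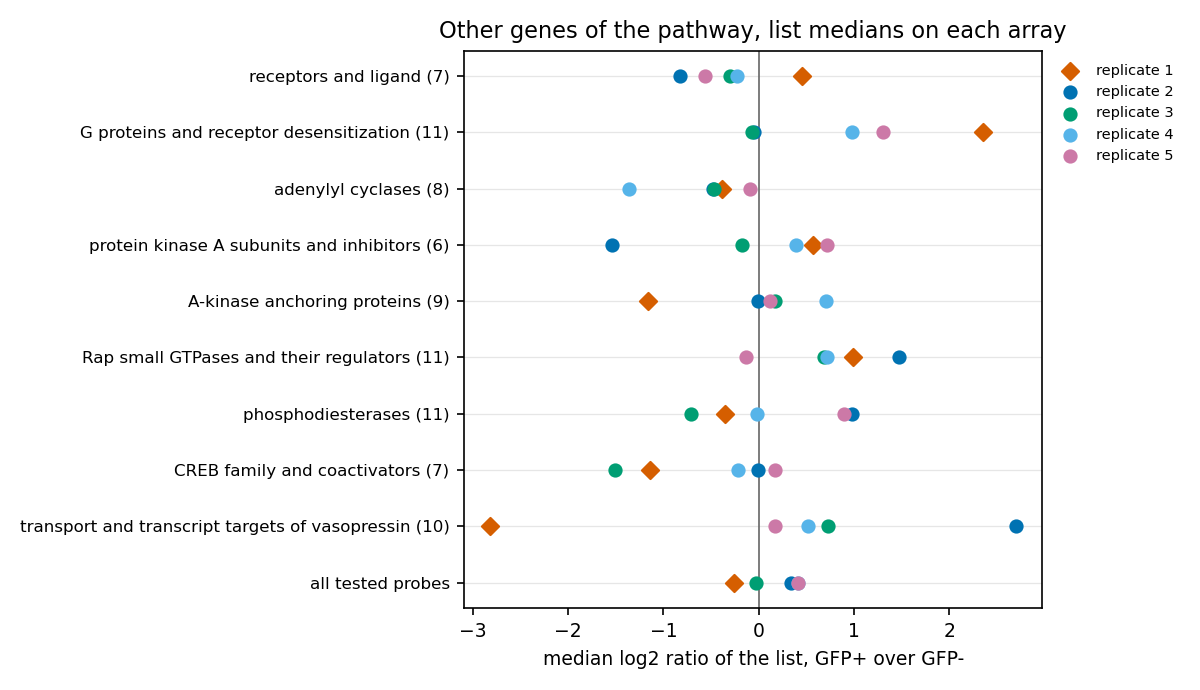
Median log2 ratio of GFP+ over GFP- for each list of other pathway genes (rows, number of tested genes in brackets) and for all tested probes, with 1 point per array and a diamond for replicate 1. The list of vasopressin targets lies at -2.81 on replicate 1 and between 0.18 and 2.70 on replicates 2 to 5, and the G protein list is highest on replicate 1 (2.35).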

How the data were processed

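The members and gene lists were chosen with earlier results of these data known. Per the labels' protocols, papillae were dispersed with collagenase, live cells were sorted into lysis buffer, and cDNA was amplified by a global PCR protocol (SuperAmp) before labelling. Such amplification can change relative amounts of transcripts from few cells. Agilent Feature Extraction is named by the submitters' processing notes, which list no version.

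The deposited tables hold, per the file headers, a linear intensity per probe and channel. They also hold a deposited log10 ratio, which matched log10 of intensity 2 divided by intensity 1 to within 0.001 for 78.3% to 89.1% of probes. The array tables list probes in different orders and were joined by probe name. The series matrix of log10 ratios differed from the tables by over 0.001 at 0 to 3 probes per array. No depth exists for arrays, and the number of arrays limits the precision.

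Here log2 of the deposited intensities, GFP+ over GFP-, was used with no further normalization. The 5 values of each probe were set against 0 in a limma fit (version 3.58.1, R 4.3.3; lmFit, eBayes, two-sided, Benjamini-Hochberg over 29806 probes, threshold 0.05). The array pairs both populations. The test was checked on simulated ratios. Values marked by the authors' software (14 to 41 per array, none of the 15 probes) were left out. Of 41174 probes, 22951 were named by RefSeq accession, 6853 by the table's name, 4593 by the platform annotation, and 6777 were unnamed. SD is the spread over arrays.

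Named were all probes of the 9 genes, 2 genes of lowest unadjusted p per list, 6 fixed genes (Gnas, Aqp2, Slc14a2, Prkacb, Crem and Pde4b), and 3 genes most like Rapgef4 and 3 most like Avpr2, leaving out clone, RIKEN and predicted names. Markers of 8 cell types were also listed. Alternatives were an offset of 50 with or without loess (span 0.3), median centring, the deposited ratio, other background filters, 1 probe per gene, replicate 1 turned, and each replicate left out. The means of the 9 genes with loess and without replicate 1 were added after seeing the data.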

Additional observations from a re-analysis of the deposited data

Results flagged for a closer look

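Among 47 sets of 5 array values (15 probes of the 9 genes, named pathway genes and list medians), 4 had 1 array far from the others, where chance gives about 1 in 20. The sets share the same 5 arrays, and some genes were named for a low p, so nothing is read from this count. Rapgef4 probe 1 had 4.07 on replicate 1, while the other arrays lay between -5.20 and -2.97. Rapgef4 probe 2 had -2.39 on replicate 4, with 0.38 to 1.21 on the others, and GFP+ was below background there. For Rapgef2 replicate 1 gave -4.00, while replicates 2 to 5 spanned -1.07 to -0.61. For Pde3b replicate 1 gave 2.46, while replicates 2 to 5 spanned -2.75 to -1.64, with GFP+ at or near background.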

How the results depend on the processing

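Under all 14 alternatives limma called 0 probes and 0 pathway genes; the lowest adjusted p was 0.111, with replicate 1 turned. Probes with one sign on all arrays numbered 2359. They numbered 1229 where both channels had to be above background on all 5 arrays, 1413 with 1 probe per gene (fewer probes enter in each), and 5782 with replicate 1 turned. Leaving out 1 replicate gave 3520 to 8131, highest without replicate 1, with 4 arrays instead of 5. The means of the 15 probes moved by more than their SD in 1 case, Pde4d probe 3, which averaged 2.74 and 0.28 with replicate 1 turned. Signs changed for 3 probes without replicate 2, for 2 without replicate 5, for 2 with replicate 1 turned, for 1 with loess and for 1 with loess and without replicate 1. The cause was not tested. Over all tested probes the median of the means was 0.13, and -0.05 after median centring. Dim signal limits Rapgef4 probe 2, Pde4d probes 1 to 4, Creb1 probes 2 and 3, and Avpr2 and Avpr1a on replicates 4 and 5. It also limits Pde3b, Rapgef4 probe 1 in GFP+ on replicates 2 to 5, and Ptger4 and Nr4a1 in GFP-. Prkaca is limited by it on replicates 1 and 4, and Prkar2b on replicate 4.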

Other observations

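A further probe is assigned to Pde4d by the platform annotation alone, while the array table names it by a clone, so it was not counted among the 15. Its intensities were 48.8, 133, 86.1, 104 and 194 in GFP+ cells, against 93.6, 36.7, 65.9, 37.0 and 54.7 in GFP- cells. Replicates 1 to 5 gave log2 ratios of -0.94, 1.85, 0.39, 1.50 and 1.83, with a mean of 0.92 ± 1.20 (SD, n = 5), or 1.39 ± 0.69 without replicate 1 (SD, n = 4). It was above background on 3 arrays in GFP+ and on 1 in GFP-. Of the other marker lists, the intercalated cell markers (7 tested) had medians of -2.11, 2.30, -0.11, 0.58 and 2.46 on replicates 1 to 5, the fibroblast markers (5 tested) -0.07, -0.11, -0.70, -0.79 and -0.45, and the leukocyte markers (6 tested) 0.01, 0.17, -0.23, -0.49 and -0.94. In these lists limma called 0 genes, with or without replicate 1.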
